A study of Mus musculus with 16 samples.

Results

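Genomic imprinting keeps a gene active on the chromosome copy inherited from the mother or on that inherited from the father. The choice is written as DNA methylation at control regions in the germline and is then copied at each cell division by DNMT1, the maintenance methyltransferase. At the loci described here oppositely imprinted genes lie side by side or inside each other, so that a gene and its neighbour or host can be read from opposite parental copies. The genes are Igf2r, Slc22a3, Grb10, Gnas, Nnat, Blcap, Mcts2, H13 and Zdbf2. They were chosen by gene symbol and by no rule on their values, though with earlier results of these data known. These 9 are part of the 26127 genes in the deposited table. Each symbol had 1 row.

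RNA was sequenced from mouse embryonic stem cells (ESCs) in 16 libraries, which the labels place in the E14 background with the genotypes Wildtype (WT, 8 libraries), Dnmt1-/- (Dnmt1 KO, 4 libraries) and Dicer/Dnmt1 -/- (Dicer/Dnmt1 KO, 4 libraries). The methods of the study describe a parent ESC line of strain C57BL/6 in which Dnmt1 is flanked by loxP sites and is removed by an inducible Cre, and knockout lines of Dicer made in it with CRISPR/Cas9 from sorted cells. The labelled and the described background differ, and the labels give neither the clone nor the time after deletion. Cells were grown in serum with LIF, with or without feeder cells. DICER makes microRNAs and other small RNAs, so the double knockout lacks these in addition to maintenance methylation. Libraries carry a number and a letter, A or B, whose meaning is not given. Nothing says that they came from separate cultures, so the p-values below measure the spread between these libraries, which may be technical.

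The libraries held 31.5 to 52.5 M reads. Dnmt1 had a mean log2 RPM (RPM, reads of a gene per M reads of the library) of 7.06 ± 0.89 (SD, n = 8) in WT, and the Dnmt1 KO and Dicer/Dnmt1 KO libraries had 4.40 ± 0.19 and 4.57 ± 0.07 (n = 4 each). Dicer1 had 5.27 ± 0.40, 5.46 ± 0.19 and 3.87 ± 0.16. The WT libraries with the number 4 stood apart: WT 4A had a Dnmt1 level of 5.69 and WT 4B of 5.55, below the other 6 WT libraries with 7.40 to 7.66. In WT 4A and 4B Igf2r, Gnas, Blcap and Zdbf2 also lay below, and Mcts2 above, every other WT library. The share of all tested genes that did so was not counted. Over all tested genes, the SD of the log2 difference between a library of number 4 and another WT library was 0.33 to 0.75. Between the other WT libraries of different numbers it was 0.33 to 0.49. The 10 ESC identity genes had a summed level of 2094 to 3499 RPM in WT, 1878 to 2547 in Dnmt1 KO and 2001 to 2326 in Dicer/Dnmt1 KO. Against WT 3 of the 10 were called lower in Dnmt1 KO (Sox2, Nanog and Klf4), beside 17.5% of all tested genes. Another 3 were called lower in Dicer/Dnmt1 KO (Lin28a, Tdgf1 and Utf1), beside 30.1%. In both cases 0 were called higher, and the genes in brackets were named after their values were seen. The 10 feeder fibroblast genes summed to 40.5 to 72.3, 85.4 to 106.8 and 87.7 to 151.6 RPM, with the fibroblast marker Lum at 0 reads in 5 of 8 WT libraries, in 0 of 4 Dnmt1 KO libraries and in 1 of 4 Dicer/Dnmt1 KO libraries. Of the 8 feeder genes that were tested, 5 were called higher in Dnmt1 KO against WT, beside 23.5% of all tested genes. In Dicer/Dnmt1 KO 7 were called higher, beside 31.9%. The part of feeder cells in the changes below was not tested. The 5 Y-linked genes summed to 0.30 to 1.40 RPM in WT, 19.2 to 22.0 in Dnmt1 KO and 14.4 to 19.2 in Dicer/Dnmt1 KO. Loss of DNMT1 and any other difference between the WT and knockout lines therefore cannot be told apart.

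Beside the genes themselves, the CpG dinucleotides in front of a start site of each were read from the genome, since CpG is the sequence that DNMT1 methylates. For each gene a window of 200 bases was taken upstream of the annotated start site with the most transcripts, or the first of these where several had as many, provided that it held no exon of that gene (build NCBIM37, GENCODE M1). No methylation was measured in these libraries. The windows of Grb10, Igf2r, Blcap, Mcts2 and H13 are shown, since each of these genes was called in at least 1 of the comparisons below; that of Nnat, also called, is described but not shown. They run from 5′ to 3′ on the strand of the gene and have CG in capitals.
Grb10, chr11:11937405-11937604, minus strand: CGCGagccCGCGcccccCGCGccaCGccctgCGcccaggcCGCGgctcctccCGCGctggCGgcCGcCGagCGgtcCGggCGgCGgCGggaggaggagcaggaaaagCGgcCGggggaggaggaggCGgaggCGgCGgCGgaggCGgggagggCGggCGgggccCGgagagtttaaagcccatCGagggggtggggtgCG
Igf2r, chr17:12962531-12962730, minus strand: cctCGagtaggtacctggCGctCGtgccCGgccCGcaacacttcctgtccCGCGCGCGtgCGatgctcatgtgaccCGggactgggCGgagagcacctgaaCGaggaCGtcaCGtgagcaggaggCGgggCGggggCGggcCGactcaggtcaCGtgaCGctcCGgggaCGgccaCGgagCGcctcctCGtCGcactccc
Blcap, chr2:157397011-157397210, minus strand: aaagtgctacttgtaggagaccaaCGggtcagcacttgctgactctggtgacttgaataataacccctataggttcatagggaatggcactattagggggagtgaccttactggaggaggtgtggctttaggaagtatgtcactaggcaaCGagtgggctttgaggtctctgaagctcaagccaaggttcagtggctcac
Mcts2, chr2:152512684-152512883, plus strand: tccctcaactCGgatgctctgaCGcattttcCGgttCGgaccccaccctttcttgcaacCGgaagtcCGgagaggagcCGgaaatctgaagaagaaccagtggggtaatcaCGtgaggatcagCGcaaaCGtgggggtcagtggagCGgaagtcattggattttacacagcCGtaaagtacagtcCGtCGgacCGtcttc
H13, chr2:152494997-152495196, plus strand: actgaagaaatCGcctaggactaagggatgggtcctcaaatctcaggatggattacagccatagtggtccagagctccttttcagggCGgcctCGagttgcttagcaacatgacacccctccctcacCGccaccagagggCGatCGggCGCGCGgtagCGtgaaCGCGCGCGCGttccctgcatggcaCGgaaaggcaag
The window of Grb10 held 32 CpGs and that of Igf2r 27, more than those of H13 with 16, Mcts2 with 15, Nnat with 11 and Blcap with 2. Over the 22375 such windows of protein-coding genes the median was 7 CpGs, the quartiles were 2 and 15, and 90.3% of the windows held at least 1. The windows of Grb10 and Gnas lay between exons within the span of these genes themselves, since other transcripts start further upstream. The window of Mcts2 lay in an intron of H13, that of Igf2r within the span of Airn, and that of Nnat within the span of Blcap, with 130 of its bases in an exon of Blcap. Zdbf2 had 24 CpGs in its window, Gnas 4 and Slc22a3 3.

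Compared per kilobase of exon, Grb10 was the most abundant of the genes in WT. Its level there was 25.5 ± 2.71 RPM per kb (SD, n = 8), followed by Mcts2 with 14.3 ± 2.62, Zdbf2 with 11.5 ± 3.26, Igf2r with 9.69 ± 2.00, Gnas with 7.73 ± 1.62, Nnat with 5.62 ± 1.55, Blcap with 3.00 ± 0.43 and H13 with 1.13 ± 0.12. Slc22a3 was near the limit of detection, at 0.033 ± 0.023 RPM per kb. The libraries of neighbours in this order overlapped from Mcts2 down to Blcap, while Grb10, H13 and Slc22a3 stood clear of their neighbours. In Dnmt1 KO, Grb10 came after Mcts2, Zdbf2 and Igf2r with 8.83 ± 0.74 RPM per kb (n = 4). In Dicer/Dnmt1 KO, Igf2r had 14.2 ± 0.91 RPM per kb and Grb10 7.81 ± 0.64, which overlapped with Nnat above it (9.29 ± 0.69) and Gnas below it (6.79 ± 1.06).

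**Figure D1:**
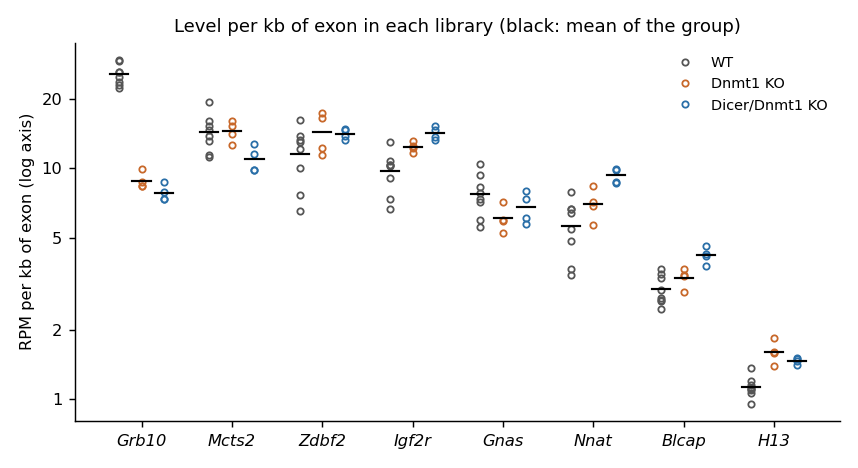
Level of 8 genes in RPM per kb of exon (log axis), with a circle for each library (WT grey, Dnmt1 KO orange, Dicer/Dnmt1 KO blue) and a black line at the mean of the group. Grb10 has a mean of 25.5 in WT and of 8.83 and 7.81 in the knockouts, where its libraries lie below all those of Igf2r. Slc22a3 is left out because its reads were too few.

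In Dnmt1 KO against WT, Grb10 was called lower, H13 and Igf2r were called higher, and the other 5 tested genes did not pass the test. The comparison was made with limma over 12892 genes above 1 RPM in at least 4 libraries, and 8 of the 9 genes were among them. Against WT, 3 of the 8 were called in Dnmt1 KO at an adjusted p under 0.05 (2 higher and 1 lower), a share close to the 41.0% of all tested genes (23.5% higher and 17.5% lower). After quantile normalization of the libraries the higher genes made up 46.3% of all calls in this comparison, against 57.3% without it. The libraries of Dnmt1 KO and WT did not overlap for 2 of the 8, Grb10 and H13, beside 23.2% of all tested genes. The median log2 change over the 8 genes was 0.26, beside 0.04 over all tested genes. With the A and B libraries of a number averaged, 2 of the 8 were called, beside 17.7% of all genes, and without the WT libraries of number 4 there were 4 of the 8, beside 44.9%, with Gnas in addition.

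In Dicer/Dnmt1 KO, 6 of the 8 genes were called against WT (4 higher and 2 lower), beside 61.9% of all tested genes (31.9% higher and 30.1% lower). The groups did not overlap for 5 of the 8, Igf2r, Grb10, Nnat, Blcap and H13, beside 41.4% of all. The median log2 change was 0.36, beside 0.02. Averaging A and B left 5 of the 8 called, beside 39.8%, and leaving out WT number 4 gave 7 of the 8, with Gnas in addition, beside 61.2%. Between the knockouts, 1 of the 8 genes was called, Mcts2, which was lower in Dicer/Dnmt1 KO, beside 36.3% of all genes (16.9% higher and 19.4% lower). There the groups did not overlap for 3 of the 8, Igf2r, Nnat and Blcap, beside 43.2% of all. With A and B averaged 0 of the 8 were called between the knockouts, beside 9.5%, and without WT number 4 there were 2 of the 8, Blcap and Mcts2, beside 44.8%. The WT libraries enter the comparison of the knockouts only through the spread shared by the groups. The comparisons with WT share the same 8 WT libraries, so their values are given side by side and were not compared with each other.

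**Figure D2:**
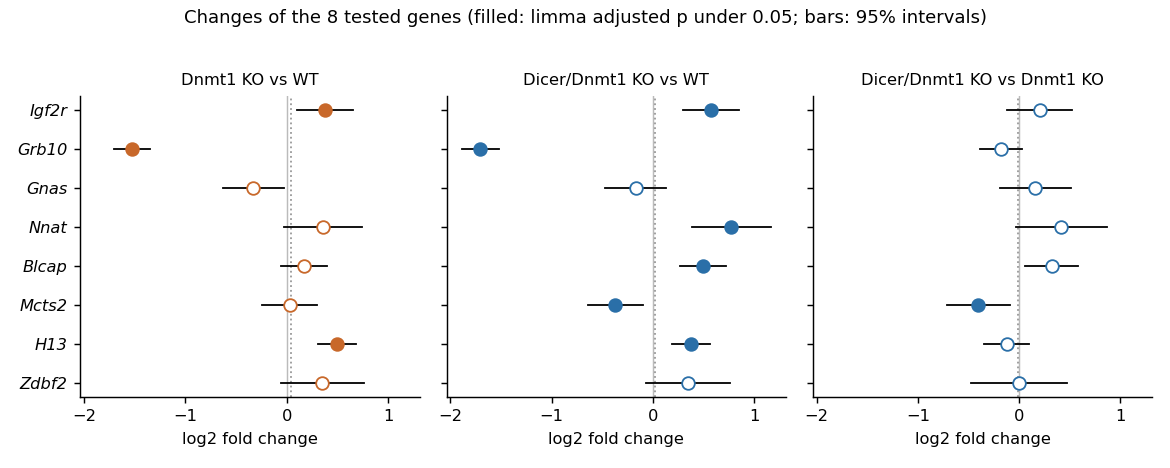
Log2 fold changes of the 8 tested genes in the 3 comparisons, with 95% intervals from limma. Filled points have an adjusted p under 0.05 and the dotted line is the median of all tested genes. Grb10 is at -1.53 and -1.70 against WT and at -0.18 between the knockouts, with an interval there that includes 0.

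Grb10 encodes an adaptor protein that binds the insulin and IGF receptors and restrains their signalling. It is read from the maternal copy in most tissues and from the paternal copy in neurons. It lies on chr11:11830511-11938686, minus strand, with 12 annotated transcripts. In WT its level ranged from 7.66 to 8.07 log2 RPM with a median of 7.86. The Dnmt1 KO libraries 1A, 1B, 2A and 2B had 6.32, 6.50, 6.26 and 6.26, and the Dicer/Dnmt1 KO libraries had 6.17, 6.32, 6.07 and 6.07. Every knockout library was thus more than 1 log2 unit below the lowest WT library, while the knockout groups overlapped. The log2 change was -1.53 with an SE of 0.09 in Dnmt1 KO (limma, adjusted p = 5.88e-10), so that its level was 34.7% of WT. In Dicer/Dnmt1 KO it was -1.70 with an SE of 0.09 (limma, adjusted p = 5.56e-11), or 30.7% of WT. Of the 12892 tested genes, 66 and 84 fell further in these comparisons. Between the knockouts Grb10 differed by -0.18 (95% interval -0.39 to 0.03; limma, adjusted p = 0.171).

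Grb10 is flanked by Ddc, the decarboxylase that makes dopamine and serotonin and is imprinted in the heart, and by Cobl, an actin nucleator. Ddc had 2.12 to 3.21 log2 RPM in WT with a median of 2.65, 3.75 to 3.91 in Dnmt1 KO and 5.08 to 5.36 in Dicer/Dnmt1 KO. The 3 groups of Ddc did not overlap. It rose by 1.13 with an SE of 0.15 in Dnmt1 KO (limma, adjusted p = 1.07e-05) and by 2.53 with an SE of 0.15 in Dicer/Dnmt1 KO (limma, adjusted p = 2.61e-10), and it was 1.40 higher in Dicer/Dnmt1 KO than in Dnmt1 KO (limma, adjusted p = 9.64e-06). Cobl went from 5.07 ± 0.49 in WT to 4.06 ± 0.11 in Dnmt1 KO (limma, adjusted p = 0.000639) and was at 5.08 ± 0.21 in Dicer/Dnmt1 KO, where the difference from WT was 0.01 (limma, adjusted p = 0.968). The 3 adjacent genes Ddc, Grb10 and Cobl therefore had different patterns over the groups.

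Igf2r encodes the receptor that carries the growth factor IGF2 to the lysosome for breakdown. In most tissues it is read from the maternal copy, and Airn, a noncoding RNA that starts in an Igf2r intron and runs antisense over the Igf2r promoter, keeps the paternal copy silent. Before differentiation both copies of Igf2r are known to be read. Igf2r lies on chr17:12875272-12962530, minus strand. Its level in WT ranged from 5.97 to 6.94 log2 RPM with a median of 6.59. The Dnmt1 KO libraries had 6.84, 6.77, 6.94 and 6.88, and the Dicer/Dnmt1 KO libraries 7.11, 7.16, 6.96 and 7.01. WT 1A lay within the range of Dnmt1 KO and the other 7 WT libraries lay below it, while Dicer/Dnmt1 KO lay above both other groups. Igf2r rose by 0.37 with an SE of 0.13 in Dnmt1 KO (limma, adjusted p = 0.0305) and by 0.58 with an SE of 0.13 in Dicer/Dnmt1 KO (limma, adjusted p = 0.00111). The first call was lost with A and B averaged (adjusted p = 0.192, within 0.00109 to 0.235 over all alternatives), and also without Dnmt1 KO 1A (0.0558), 2A (0.0892) or 2B (0.0716). Over 32 alternatives, that of a 2-fold minimum among them, its adjusted p was under 0.05 in 21. Without the low WT libraries of number 4 the changes were 0.23 (limma, adjusted p = 0.0328) and 0.43 (adjusted p = 0.000243, within 3.47e-05 to 0.0699 over all alternatives).

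Airn overlaps Igf2r over 28354 bases on the opposite strand without sharing exon bases. The libraries are stranded, but the sources used here do not say whether the counting used the strand. Unspliced RNA of either gene in this stretch may thus be counted for the other, which also affects their correlation below. Airn had 165 reads over the 8 WT libraries, 141 over the 4 Dnmt1 KO libraries and 224 over the 4 Dicer/Dnmt1 KO libraries. In log2 RPM it ranged from -3.48 to -0.07 in WT, from -0.45 to 0.48 in Dnmt1 KO and from 0.17 to 1.08 in Dicer/Dnmt1 KO. Its change was 1.2 with an SE of 0.48 in Dnmt1 KO, which did not pass the test (limma, adjusted p = 0.0543), and 1.94 with an SE of 0.48 in Dicer/Dnmt1 KO, which did (limma, adjusted p = 0.00205). WT 4A and 4B were also the lowest libraries of Airn, at -2.36 and -3.48, and without them the changes were 0.65 (limma, adjusted p = 0.0614) and 1.39 (limma, adjusted p = 0.00029), an alternative that was chosen after seeing the data. The silencing RNA and its target therefore both had their highest mean in Dicer/Dnmt1 KO. Over the 16 libraries, which differ in depth and group, the log2 levels of Igf2r and Airn had a Pearson r of 0.95, of 0.893 after the group means were removed, and of 0.872 over the 14 libraries without WT number 4.

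Slc22a3, a transporter of organic cations, is imprinted under the control of Airn in the placenta. It lies on chr17:12612838-12700570, minus strand, and was detected with few reads. WT libraries had 1 to 12 reads with a median of 3, and 40 in all. Dnmt1 KO 1A had 1 read and the other 3 Dnmt1 KO libraries had 0. Dicer/Dnmt1 KO 2B had 1 read and the other 3 had 0. Scaled to the reads of the groups, the level was 17.5-fold higher in WT than in Dnmt1 KO (exact 95% interval 2.97 to 709) and 16.8-fold higher than in Dicer/Dnmt1 KO (2.85 to 679), where the intervals cover counting error only. Slc22a3 did not reach 1 RPM and was not among the tested genes.

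Igf2r exceeded its neighbour Slc22a3 by 9.97 ± 1.14 log2 units within a library in WT (n = 8), by 12.1 ± 0.20 in Dnmt1 KO and by 12.3 ± 0.21 in Dicer/Dnmt1 KO (n = 4 each). In the knockouts these values were set by the 0.9 read that the deposited table holds in place of 0 for Slc22a3, so they are given without a test.

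**Figure D3:**
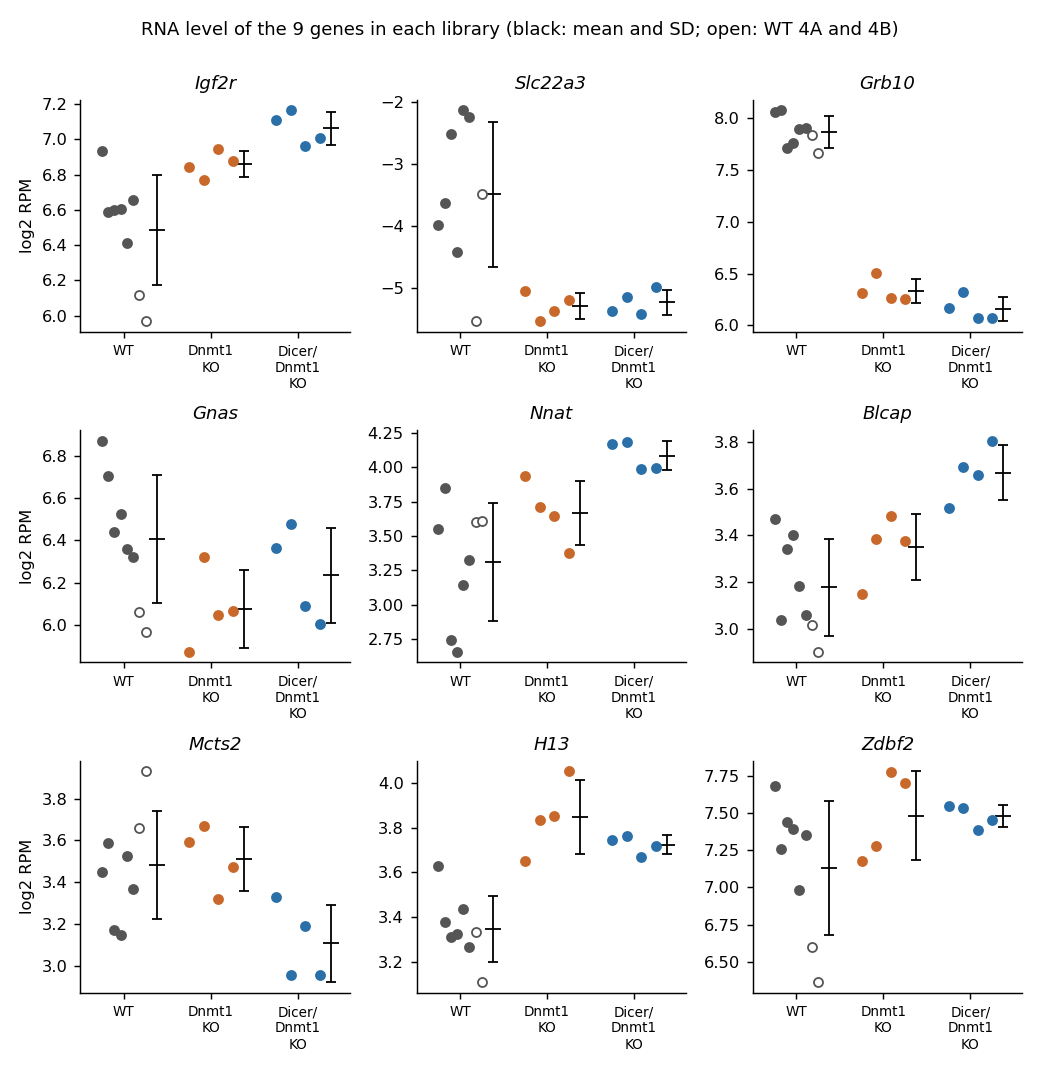
Level of each of the 9 genes in log2 RPM in every library, by group, with the mean and SD in black beside the points and the WT libraries 4A and 4B as open circles. Grb10 separates WT (7.66 to 8.07) from both knockouts (6.07 to 6.50). The Dicer/Dnmt1 KO libraries of Igf2r, Nnat and Blcap lie above all other libraries, and those of Slc22a3 lie near the value written for 0 reads.

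Nnat encodes neuronatin, a small membrane protein of brain and endocrine cells, and is read from the paternal copy. It lies on chr2:157385814-157388258, plus strand, inside the gene Blcap, whose protein takes its name from bladder cancer. In WT the level of Nnat ranged from 2.66 to 3.85 log2 RPM with a median of 3.44. The Dnmt1 KO libraries had 3.93, 3.71, 3.65 and 3.37, and the Dicer/Dnmt1 KO libraries 4.17, 4.18, 3.99 and 4.00. Dicer/Dnmt1 KO lay above every other library, whereas Dnmt1 KO overlapped with WT. Nnat rose by 0.78 with an SE of 0.18 in Dicer/Dnmt1 KO against WT (limma, adjusted p = 0.00156), or to 171% of WT. In Dnmt1 KO it differed by 0.36 with an SE of 0.18 (limma, adjusted p = 0.133), and between the knockouts by 0.42 with an SE of 0.21 (limma, adjusted p = 0.135). Its level within WT differed between numbers, with 2.75 and 2.66 in the libraries of number 2 and 3.6 and 3.61 in those of number 4. Of the 4 neural genes tested, 2 were called higher (Tubb3 and Pax6) and 1 lower (Nes) in Dicer/Dnmt1 KO against WT. Over all tested genes 31.9% were higher and 30.1% lower. Tubb3, Pax6 and Nes were named after their values were seen. The 4 neural genes summed to 36.3 to 86.7 RPM in WT, 43.1 to 47.7 in Dnmt1 KO and 50.04 to 65.7 in Dicer/Dnmt1 KO. The part of neural cells in the level of Nnat was not tested, and more cells of a type and more RNA per cell cannot be told apart in bulk libraries.

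Blcap, on chr2:157382098-157397010, minus strand, spans Nnat on the opposite strand, and the exons of the 2 genes share 0 bases. Whether the counting used the strand is not given, so unspliced Blcap RNA that lies in Nnat may be counted for Nnat. Blcap had 2.90 to 3.47 log2 RPM in WT with a median of 3.12. It had 3.15, 3.38, 3.48 and 3.38 in Dnmt1 KO and 3.52, 3.69, 3.66 and 3.81 in Dicer/Dnmt1 KO. As with Nnat, Dicer/Dnmt1 KO lay above every other library. Blcap rose by 0.49 with an SE of 0.11 in Dicer/Dnmt1 KO against WT (limma, adjusted p = 0.000832). It differed by 0.17 with an SE of 0.11 in Dnmt1 KO (limma, adjusted p = 0.218). Between the knockouts it differed by 0.32 with an SE of 0.13 (limma, adjusted p = 0.0539), which became 0.0276 without WT number 4, within 0.00999 to 0.411 over all alternatives.

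The difference of Nnat and Blcap within a library was then compared, because it does not depend on the scaling of the libraries. In WT it ranged from -0.74 to 0.81 log2 units with a median of 0.17, and Nnat exceeded Blcap in 5 of 8 libraries. It was 0.78, 0.33, 0.16 and -0.00 in Dnmt1 KO and 0.65, 0.49, 0.32 and 0.19 in Dicer/Dnmt1 KO. All knockout values lay within the range of WT. The difference of the means from WT was 0.19 in Dnmt1 KO (two-sided exact permutation test, p = 0.57, adjusted over 9 tests 0.600) and 0.28 in Dicer/Dnmt1 KO (exact permutation, p = 0.378, adjusted 0.486), and it was 0.10 between the knockouts (exact permutation, p = 0.600, adjusted 0.600). A shift of Nnat against its host was thus not detectable with these libraries.

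Mcts2 is a retrocopy, a gene without introns that arose from the RNA of the X-linked gene Mcts1, a factor of translation. It is read from the paternal copy and lies within an intron of H13, which encodes the signal peptide peptidase, a protease of the endoplasmic reticulum membrane. Mcts2 is on chr2:152512884-152513676 and H13 on chr2:152495197-152534406, both on the plus strand, and their exons share 0 bases. Of the 7 annotated H13 transcripts, 1 ends 447 bases before the start of Mcts2 and 5 end beyond it. The deposited table has 1 value for H13, in which these forms are not separated, and reads of unspliced H13 RNA that lie in Mcts2 cannot be told apart from those of Mcts2. The coding sequences of Mcts2 and Mcts1 were identical at 463 of 546 aligned bases (84.8%), and 0 of the 694 stretches of 100 bases in Mcts2, the read length, occurred in a transcript of Mcts1.

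Mcts2 had 3.15 to 3.93 log2 RPM in WT with a median of 3.49. It had 3.59, 3.67, 3.32 and 3.47 in Dnmt1 KO and 3.33, 2.96, 3.19 and 2.96 in Dicer/Dnmt1 KO. Dnmt1 KO lay within the range of WT, and 2 of the 4 Dicer/Dnmt1 KO libraries lay below every other library. Mcts2 fell by 0.37 with an SE of 0.13 in Dicer/Dnmt1 KO against WT (limma, adjusted p = 0.0186) and was lower by 0.40 with an SE of 0.15 in Dicer/Dnmt1 KO than in Dnmt1 KO (limma, adjusted p = 0.0421). Against WT, Dnmt1 KO differed by 0.03 (95% interval -0.24 to 0.30; limma, adjusted p = 0.863). With A and B averaged the calls in Dicer/Dnmt1 KO were lost, with adjusted p-values of 0.110 against WT (0.00224 to 0.395 over all alternatives) and 0.218 against Dnmt1 KO (0.00322 to 0.556). The call against WT was also lost without Dicer/Dnmt1 KO 1B (0.0676) or 2B (0.066), and that against Dnmt1 KO without any of 7 single libraries (0.0516 to 0.114). Over 32 alternatives, that of a 2-fold minimum among them, the adjusted p was under 0.05 in 24 against WT and in 19 against Dnmt1 KO. The parent gene Mcts1 had 3.62 ± 0.35 log2 RPM in WT, 3.89 ± 0.22 in Dnmt1 KO and a mean of 2.98 ± 0.36 in Dicer/Dnmt1 KO, and it was lower in the last group than in WT by 0.64 (limma, adjusted p = 0.00512) and than in Dnmt1 KO by 0.90 (limma, adjusted p = 0.00255). Retrocopy and parent were thus both called lower in Dicer/Dnmt1 KO.

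H13 moved in the other direction. It had 3.11 to 3.63 log2 RPM in WT with a median of 3.33, while Dnmt1 KO had 3.65, 3.83, 3.85 and 4.05 and Dicer/Dnmt1 KO 3.75, 3.76, 3.67 and 3.72. Every knockout library lay above every WT library. H13 rose by 0.50 with an SE of 0.09 in Dnmt1 KO (limma, adjusted p = 0.000286), or to 141% of WT, and by 0.38 with an SE of 0.09 in Dicer/Dnmt1 KO (limma, adjusted p = 0.00168), or to 130%. Between the knockouts it differed by -0.12 (95% interval -0.34 to 0.10; limma, adjusted p = 0.373). Both calls against WT were kept with A and B averaged (adjusted p = 0.0267 and 0.0424), and each was lost in the fit of the A libraries alone (0.158 and 0.155, the highest over all alternatives, of which the lowest were 6.64e-05 and 0.000341).

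The difference of Mcts2 and H13 within a library ranged from -0.18 to 0.82 log2 units in WT with a median of 0.10, and Mcts2 exceeded H13 in 5 of 8 libraries. In Dnmt1 KO it was -0.06, -0.17, -0.53 and -0.58, and in Dicer/Dnmt1 KO it was -0.41, -0.81, -0.48 and -0.76. H13 thus exceeded Mcts2 in all 8 knockout libraries. The difference was lower in Dicer/Dnmt1 KO than in WT by 0.75, without overlap (two-sided exact permutation test, p = 0.00202, the smallest that 8 and 4 libraries allow, adjusted over 9 tests 0.0182). Averaging A and B ended this call (exact permutation, p = 0.0667, adjusted 0.20, within 0.00909 to 0.40 over all alternatives), where 0.0667 is the smallest p that 4 and 2 averaged values allow. In Dnmt1 KO it was lower than in WT by 0.47, with 2 of the 4 libraries inside the range of WT (exact permutation, p = 0.0404, adjusted 0.0909). Between the knockouts it was lower by 0.28 in Dicer/Dnmt1 KO (exact permutation, p = 0.171, adjusted 0.309). Without the WT libraries of number 4, of which 4B had the highest value, the difference from WT was -0.60 in Dicer/Dnmt1 KO (exact permutation, adjusted p = 0.0286) and -0.32 in Dnmt1 KO (adjusted p = 0.150).

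**Figure D4:**
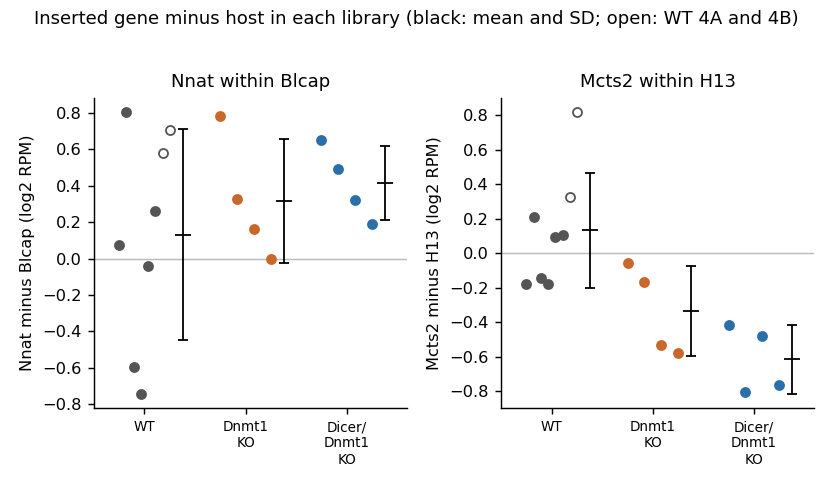
Log2 RPM of the inserted gene minus that of its host in every library, for Nnat in Blcap and Mcts2 in H13, with the mean and SD in black and WT 4A and 4B as open circles. The knockout values of Nnat minus Blcap lie within the WT range of -0.74 to 0.81, whereas the Dicer/Dnmt1 KO values of Mcts2 minus H13 (-0.81 to -0.41) lie below all WT values.

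Gnas encodes the alpha subunit of the stimulatory G protein, which couples hormone receptors to cyclic AMP. Its locus makes further transcripts from other promoters, some read from the maternal and some from the paternal copy, and the deposited value sums 22 annotated transcripts from 16 start sites on chr2:174109821-174172245, plus strand. In WT Gnas ranged from 5.97 to 6.87 log2 RPM with a median of 6.4. It had 5.87, 6.32, 6.05 and 6.06 in Dnmt1 KO and 6.36, 6.48, 6.09 and 6.004 in Dicer/Dnmt1 KO. The groups overlapped, with WT 4A and 4B, at 6.06 and 5.97, among the knockout values. Gnas differed from WT by -0.33 with an SE of 0.14 in Dnmt1 KO (limma, adjusted p = 0.0767) and by -0.17 with an SE of 0.14 in Dicer/Dnmt1 KO (limma, adjusted p = 0.309), and by 0.16 between the knockouts (limma, adjusted p = 0.484). Without WT number 4 it was lower than WT by 0.46 (limma, adjusted p = 0.00386, within 6.41e-05 to 0.593 over all alternatives) and by 0.30 (limma, adjusted p = 0.0323, within 0.000868 to 0.692). In Dnmt1 KO it was also called without WT 4A alone (0.0403) or WT 4B alone (0.0222).

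Nespas, a noncoding RNA read from the paternal copy against the direction of Gnas, had 2.93 to 3.6 log2 RPM in WT with a median of 3.31, 3.65 to 4.02 in Dnmt1 KO and 3.56 to 4.16 in Dicer/Dnmt1 KO. Dnmt1 KO lay above WT, and Dicer/Dnmt1 KO overlapped with it. It rose by 0.58 with an SE of 0.14 in Dnmt1 KO (limma, adjusted p = 0.00261) and by 0.60 with an SE of 0.14 in Dicer/Dnmt1 KO (limma, adjusted p = 0.00110). Nespas and Gnas share 988 exon bases, 31.4% of those of Nespas and 8.83% of those of Gnas. The libraries are stranded, but the sources used here do not say whether the counting used the strand, so reads in the shared part may be counted for either gene.

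Zdbf2 encodes a large zinc finger protein and is read from the paternal copy. It lies on chr1:63319839-63361150, plus strand. It ranged from 6.36 to 7.68 log2 RPM in WT with a median of 7.31, and had 7.18, 7.28, 7.77 and 7.70 in Dnmt1 KO and 7.55, 7.53, 7.39 and 7.45 in Dicer/Dnmt1 KO. All knockout libraries except Dnmt1 KO 2A and 2B lay within the range of WT. The changes against WT were 0.35 with an SE of 0.20 in Dnmt1 KO (limma, adjusted p = 0.163) and 0.35 with an SE of 0.20 in Dicer/Dnmt1 KO (limma, adjusted p = 0.131), and the knockouts differed by -0.00 (95% interval -0.48 to 0.47; limma, adjusted p = 0.992). Without WT number 4, at 6.6 and 6.36, the changes were 0.13 (limma, adjusted p = 0.405, within 0.00627 to 0.808 over all alternatives) and 0.13 (limma, adjusted p = 0.38, within 0.00382 to 0.812). Without WT 1A the change in Dicer/Dnmt1 KO was called (0.0498). Its neighbour Adam23, a cell adhesion protein, had 6.04 ± 0.22 in WT, 5.93 ± 0.06 in Dnmt1 KO and a mean of 6.53 ± 0.11 in Dicer/Dnmt1 KO, where it rose by 0.49 (limma, adjusted p = 0.000511). In Dnmt1 KO it differed from WT by -0.11 (limma, adjusted p = 0.387), and without WT number 4, an alternative chosen after seeing the data, it was lower by 0.21 (limma, adjusted p = 0.0341). Gpr1, a receptor on the other side of Zdbf2, had 20, 6 and 13 reads in the 3 groups.

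**Figure D5:**
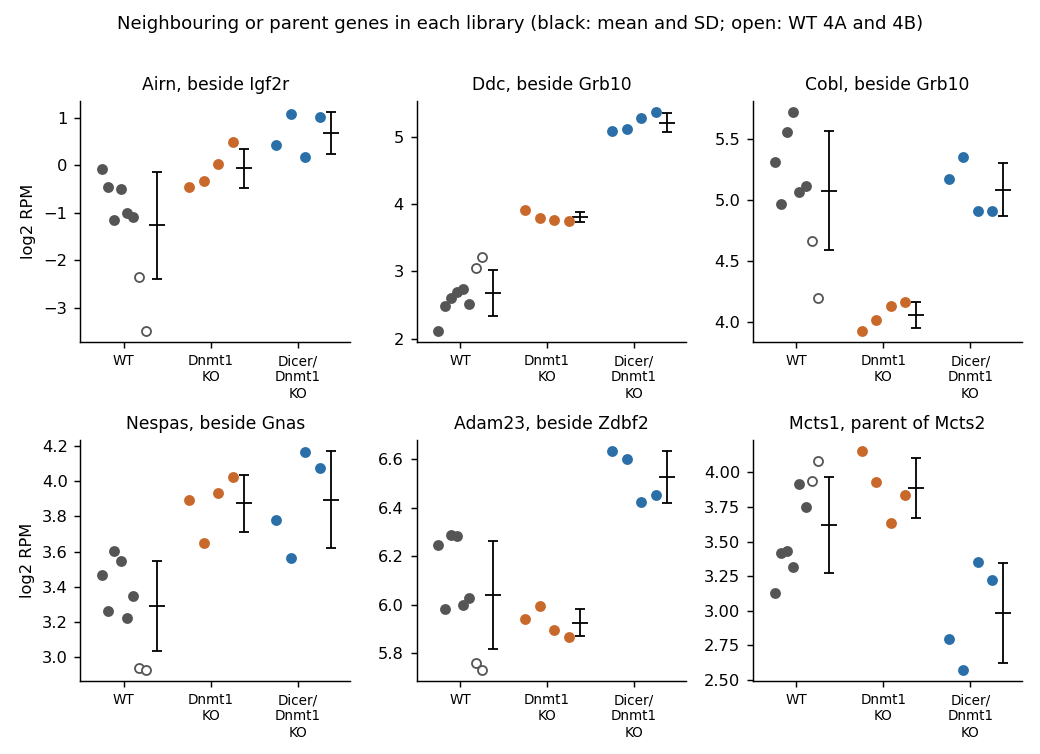
Level in log2 RPM of 5 neighbours of the imprinted genes and of Mcts1, the parent of Mcts2, in every library, with the mean and SD in black and WT 4A and 4B as open circles. Ddc has separate ranges in the 3 groups (2.12 to 3.21, 3.75 to 3.91 and 5.08 to 5.36), and Nespas is higher in both knockouts than its WT median of 3.31 in every library.

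Of 10 further listed genes, 6 were tested. The 10 lie at the same loci, except Mcts1, the X-linked parent of Mcts2. In Dnmt1 KO 2 were called higher (Ddc and Nespas) and 1 lower (Cobl), beside 41.0% of all tested genes called in either direction. In Dicer/Dnmt1 KO 4 were called higher (Ddc, Airn, Nespas and Adam23) and 1 lower (Mcts1, which lies at none of these loci), beside 61.9%. Of 2 other tested genes that lie in a host or share its locus, Zrsr1 and Inpp5f, the first rose and the second did not. Zrsr1, an RNA splicing factor and retrocopy within Commd1, rose by 0.58 in Dnmt1 KO (limma, adjusted p = 0.000253) and by 0.76 in Dicer/Dnmt1 KO (adjusted p = 7.57e-06), while Commd1 did not pass the test in Dnmt1 KO (-0.21, adjusted p = 0.197) and fell by 0.66 in Dicer/Dnmt1 KO (adjusted p = 0.000302). Zrsr1 and Commd1 lie on opposite strands and share 203 exon bases, 6.18% of those of Zrsr1. Since the use of the strand in counting is not given, reads there and unspliced Commd1 RNA may be counted for Zrsr1. Inpp5f, a phosphatase gene with an imprinted form, differed by -0.02 in Dnmt1 KO (limma, adjusted p = 0.806) and fell by 0.72 in Dicer/Dnmt1 KO (limma, adjusted p = 1.83e-07). Nap1l5, within Herc3 and named after its values were seen, stayed under the expression filter with 50 reads over 8 WT libraries, 127 over 4 Dnmt1 KO libraries and 67 over 4 Dicer/Dnmt1 KO libraries. Among 29 other imprinted genes, 23 were tested, of which 16 were higher and 1 lower in Dnmt1 KO and 16 higher and 3 lower in Dicer/Dnmt1 KO, with median log2 changes of 1.00 and 0.85. Over all tested genes 23.5% were higher and 17.5% lower in Dnmt1 KO, and 31.9% higher and 30.1% lower in Dicer/Dnmt1 KO. Beside the other imprinted genes, the genes described here had medians of 0.26 and 0.36, and the difference between the lists was not tested. Of 13 listed factors that keep or remove DNA methylation or bind imprints, Tet1 and Tet2 among the removers, 5 were higher and 2 lower in Dnmt1 KO, and 4 higher, with Tet1 among them, and 1 lower in Dicer/Dnmt1 KO, beside 41.0% and 61.9% of all tested genes called in either direction. The largest rises in this list were those of Dnmt3l in Dnmt1 KO (1.16, limma, adjusted p = 7.37e-07) and of Arid4a in Dicer/Dnmt1 KO (0.84, limma, adjusted p = 1.05e-06). The lower gene in Dicer/Dnmt1 KO was Zfp57, the zinc finger protein that binds methylated imprints (-0.55, limma, adjusted p = 0.000821). Zfp57 was also called lower in Dnmt1 KO (-0.35, limma, adjusted p = 0.0285), and the knockouts differed by -0.20 (limma, adjusted p = 0.274).

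Across the 16 libraries, which share groups and differ in depth, the correlations between the genes differed in sign. Igf2r had a Pearson r of 0.879 with Zdbf2, of 0.828 with Blcap and of 0.778 with H13, but of -0.686 with Grb10 and -0.681 with Mcts2. With the group means removed, r was 0.938 for Igf2r and Zdbf2 and 0.489 for Igf2r and Grb10, so the sign of the last depended on the differences between groups. Within their host pairs, r was 0.310 for Nnat and Blcap and -0.299 for Mcts2 and H13. With the group means removed these were -0.596 and -0.301, so that the sign for Nnat and Blcap changed. The largest r over the 16 libraries was then sought among the tested genes, with these 9 genes, predicted genes and small RNAs left out. By this r the pattern of Igf2r was most like that of Cul3 (0.982) and Slmap (0.98), and that of Grb10 like Zfp334 (0.989) and Adrbk2 (0.989). Gnas was most like Mki67 (0.949) and Med24 (0.934), Nnat like Ttc8 (0.922) and Sqstm1 (0.91), Blcap like Ssfa2 (0.934) and Man1c1 (0.934), Mcts2 like Eid1 (0.930) and Ppp1r8 (0.922), and Zdbf2 like Dpp9 (0.985) and Arhgap11a (0.984). H13 was most like Phlda1 (0.941) and Peg3 (0.941), the latter an imprinted gene, which was called higher in Dnmt1 KO by 1.36 (limma, adjusted p = 1.28e-06) and in Dicer/Dnmt1 KO by 0.91 (adjusted p = 4.16e-05).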

How the data were processed

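Libraries from 16 mouse ESC samples were made from total RNA after removal of ribosomal RNA (stranded, paired ends of 100 bases). The authors trimmed reads with Trim Galore (0.3.5 in the submitters' processing notes), aligned them with TopHat (TopHat2 2.0.11) to NCBIM37, discarded alignments with a mapping quality under 20 and quantified genes in SeqMonk. The deposited values are log2 of reads per M reads (log2 RPM). The linear values were whole reads for 100% of nonzero values (within 0.05 read), and genes without reads were written as 0.9 read. Of the value columns, 35 of other samples were not used. The 16 libraries had 31.46 to 52.54 M reads, of which 44.2% to 48.7% lay in genes, so that 3 reads correspond to 0.0571 to 0.0954 RPM.

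limma 3.58.1 in R 4.3.3 fitted 3 group means to log2 RPM with an intensity trend for genes above 1 RPM in at least 4 libraries (12892). A gene with a Benjamini-Hochberg adjusted p-value under 0.05 was called. Differences of gene pairs within a library were tested by exact permutation of the group labels (two-sided, adjusted over 9 tests, of which the 3 with Slc22a3 are not given because its knockout values stand for 0 or 1 read). Groups came from the genotype labels. The alternatives averaged the A and B libraries, used the A or the B libraries alone or each as a block, left out libraries, rescaled or refiltered the values, or fitted recovered reads with voom. Positions and exon lengths came from GENCODE M1, which had the same coordinates for 26055 of 26127 genes. The genes named were the 9 members, the targeted genes, the neighbours and other genes of the listed groups. For each tested member the 2 genes with the highest correlation were also named, with the members, predicted genes and small RNAs left out. Genes of the lists away from the 9 loci were named where they were the extremes of their list, or else are marked as named after their values were seen. The members and lists were chosen with earlier results of these data known. The limma step was tested on simulated data.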

Additional observations from a re-analysis of the deposited data

How the results depend on the processing

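No called change of the 8 tested genes over 31 alternatives, and no called pair difference over 24, changed sign. Of the results for single genes 676 kept their side of the threshold, 31 gained and 37 lost it. The call for Mcts2 minus H13 in Dicer/Dnmt1 KO was kept in 18 and lost in 2 of the 20 alternatives that could pass the test, and the other 4 (A and B averaged, A only, B only, numbers as pairs) had too few libraries to pass. The difference of Igf2r and Slc22a3 is given as a value only. The fall of Grb10 against WT was called under all alternatives. The 3 genes called in Dnmt1 KO against WT became 1 with the A libraries only, 5 with WT numbers 3 and 4 only, 1 with a minimum change of 2-fold, and 2 to 4 when single libraries were left out. The 6 called in Dicer/Dnmt1 KO against WT became 2 with the A libraries only, 1 with a minimum change of 2-fold, and 5 to 7 without single libraries. The 1 gene called between the knockouts became 0 with A and B averaged, with the A or B libraries only, with A and B as a random block, with no expression filter, with voom and with a minimum change of 2-fold. It became 2 with WT numbers 1 and 2 only or without WT number 4, 3 with WT numbers 3 and 4 only, 4 with only the compared groups in the fit, and 0 to 2 when single libraries were left out (0 without WT 3A, 2 without WT 1A). The WT libraries enter this comparison only through the spread shared by the groups, so leaving them out changes the SE and not the log2 change. For Airn the log2 change was 0.74 with and without WT number 4, with an SE of 0.55 and 0.30. Why the other alternatives differed was not tested. With WT numbers 1 and 2 only, Mcts2 minus H13 was -0.54 in Dicer/Dnmt1 KO against WT, and Igf2r minus Slc22a3 was 1.83 and 1.97 for the single and the double knockout against WT. With WT numbers 3 and 4 only these were -0.95, 2.51 and 2.65. The first of these did not pass the test in either case (adjusted p = 0.0857 and 0.0643). Without single libraries, Igf2r minus Slc22a3 ranged from 1.96 to 2.41 in Dnmt1 KO. Mcts2 minus H13 ranged from -0.81 to -0.65 in Dicer/Dnmt1 KO.

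The count over all genes fell from 5289 to 2288 (A and B averaged), 1833 (A only), 1610 (B only), 2723 (random block) and 901 (2-fold) in Dnmt1 KO against WT. In Dicer/Dnmt1 KO against WT it fell from 7985 to 5134, 4002 and 4813 (averaged, A, B) and 1650 (2-fold), and between the knockouts from 4682 to 1225, 951, 667, 2109 and 589 in the order first given. With voom on the recovered reads 5319, 8000 and 4715 genes were called in the 3 comparisons. WT numbers 3 and 4 only gave 6461, 8866 and 5745. Between the knockouts 5893 were called with WT numbers 1 and 2 only and 6088 with only the compared groups in the fit. Without single libraries the counts ranged from 4054 to 5624, from 7109 to 8368 and from 3690 to 5194. Across groups, the deviations of libraries of the same number had an r of -0.018, 0.417 and -0.221 in the 3 comparisons. What the numbers stand for was thus not settled. Within a group, the A and B libraries of a number were alike, with a correlation of 0.667 in the random-block fit. The main tests count them as separate replicates. With the replicate number as a block, 4, 6 and 5 of the 8 genes were called in the 3 comparisons. Over all 12892 tested genes 6541, 7828 and 6690 were called with this block. With the pairing by number the smallest p for a pair difference was 0.0556, so that these are values only: 0.43, 0.53 and 0.10 for Nnat minus Blcap, -0.26, -0.54 and -0.28 for Mcts2 minus H13, and 1.83, 1.97 and 0.14 for Igf2r minus Slc22a3. Depth limits Slc22a3, whose knockout groups had 1 read each.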
